A study of Mus musculus with 3 samples.

Results

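The E-box mutant culture (BEM) was compared with the Barhl1 mutant culture (BM), gene by gene, with 1 RNA library of each. Genes were taken where the mean over these 2 libraries reached 1 FPKM, which left 12210 of the 47725 genes in the table, called measured below. FPKM are read counts corrected for how long the gene is and how deeply the library was sequenced. The series holds 3 libraries, from lines of mouse embryonic stem cells that are wild type (WT), BM or BEM. BM is labelled as a mutant of Barhl1 and BEM as a mutant of an E-box site named E3. Not given in the sources used here are the kind of mutation in BM, the position of E3 and the number of clones behind each line. All 3 cultures were otic progenitors grown to day 9 on a layer of mitotically inactivated stromal cells from chicken embryo utricles. Their shared medium held 25 ng/ml of EGF and 1 µM of retinoic acid. Each line had 1 library, so no difference has a replicate check and no p-value was computed. The intervals given for ratios are 95% exact (Clopper-Pearson) intervals for reads, which cover counting error only and compare these libraries, not the conditions.

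Barhl1 is a homeobox transcription factor of the BarH-like family, known in the mouse for its part in the survival of inner ear hair cells. An E-box is a short motif, CANNTG with any base at N, that is bound by pairs of basic helix-loop-helix transcription factors. Atoh1 is the factor of that class that starts hair cell differentiation in the mouse, and Barhl1 is known as a gene downstream of it. The question is how a culture mutated at the E-box site differs from a culture mutated in Barhl1 itself.

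The 250 bases before the RefSeq start of Barhl1 are shown because the mutated element is a motif of this kind. They lie at chr2:28916669-28916918 on the minus strand of GRCm38.p6, and capitals mark CANNTG.

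Barhl1 upstream: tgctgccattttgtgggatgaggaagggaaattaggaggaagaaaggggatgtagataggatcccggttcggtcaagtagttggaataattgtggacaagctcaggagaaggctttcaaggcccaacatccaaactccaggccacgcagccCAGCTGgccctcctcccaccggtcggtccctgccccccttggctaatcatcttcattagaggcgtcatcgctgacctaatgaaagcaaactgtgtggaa

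The window held 1 CANNTG, a motif that is its own reverse complement. A CANNTG stood in 66.0% of the 27025 upstream windows of this length in the RefSeq table and in 55.9% of the 8669 that belong to measured genes. The match is a description of these letters. Whether it is the E3 site was not tested.

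Barhl1 (ENSMUSG00000026805, chr2:28907679-28916668, minus strand) had 95.1 FPKM in BM, 0.0107 in BEM and 126.5 in WT. The BEM library was close to 0 and the BM library lay nearer to WT. On the log2(FPKM + 0.5) scale used throughout, the ratio of BEM to BM was -7.55, the lowest of the 12210 genes. The Barhl1 values did not come out as whole reads: at the annotated exon length of 3905 bases they correspond to 7465.16 reads in BM and 0.998 in BEM. Barhl1 and Atoh1 were the 2 measured genes for which no length gave whole reads, so neither carries a counting interval. Atoh1 had 236.5 FPKM in BM, 240.9 in BEM and 270.2 in WT, a log2 ratio of BEM to BM of 0.03.

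The genes beside Barhl1 lay close together in the mutants. Gtf3c4, a subunit of the transcription factor of RNA polymerase III, stood at 10.1 FPKM in BM and 9.86 in BEM. Ddx31, an RNA helicase, stood at 4.64 and 4.37 FPKM, and Ttf1, which ends ribosomal RNA transcription, at 4.73 and 5.01 FPKM. Each of these intervals held a ratio of 1. Ak8 and Cfap77, on the same stretch, had 2 to 10 reads, and Barhl2, the relative of Barhl1, had 0 reads in both mutants. Over the 61 other measured genes within 2 Mb of Barhl1, the median log2 ratio was 0.0010, and 31 of them lay above 0. In the authors' deposited table for this pair, Barhl1 was the 1 gene marked significant, at -13.11 on the log2 scale with a false discovery rate of 9.81e-11, and 4 genes had a p-value under 0.05. The sources used here do not say how those p-values came from single libraries.

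**Figure D1:**
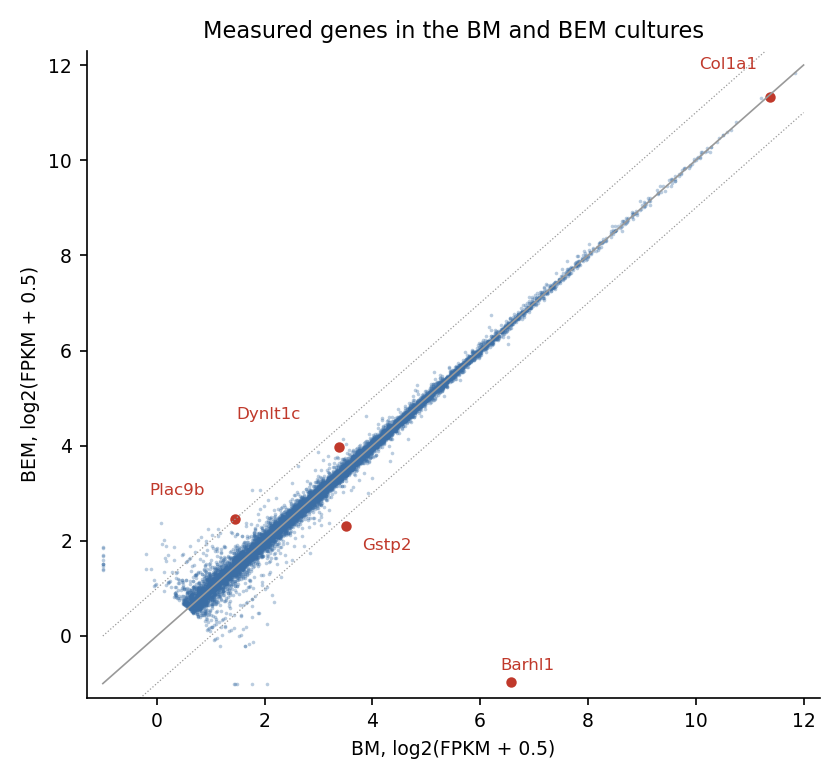
Level of each measured gene in BM (x axis) and in BEM (y axis), both as log2(FPKM + 0.5); each point is 1 gene, the solid line marks equal levels and the dotted lines mark 2-fold. Barhl1 (log2 ratio -7.55) lies far below the line, and 99.3% of the genes lie within 2-fold.

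Apart from Barhl1, the 2 mutant cultures were close. The library totals, inferred from the FPKM, were 20111794 reads in BM and 23813123 in BEM. The median log2 ratio was 0.0021, and from the 5th to the 95th percentile the ratios ran from -0.19 to 0.21. The ratio was within 1.1-fold for 9850 genes (80.7%), within 25% for 11651 (95.4%) and within 1.5-fold for 98.2%. Across genes, which share the 2 libraries and are not replicates, Pearson's r of the log2 levels was 0.992 (n = 12210). For scale, 22.4% of the same genes (2739) were at least 2-fold from WT in BM and 22.6% (2755) in BEM, with the WT library shared by both counts.

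At 2-fold, 47 genes were higher in BEM (0.385% of those measured) and 38 were lower (0.311%). Most of these 85 genes (0.696%) were short or rare transcripts, with 24 microRNA genes, 21 snoRNA genes, 11 small nuclear RNA genes and 8 protein-coding genes among them. Fewer than 50 reads in both libraries stood behind 82 of the 85. With at least 50 reads in 1 library there remained Gstp2, which was lower, and Plac9b, which was higher, beside Barhl1. With the higher value at least 25% above the lower, 303 genes were higher in BEM (2.48%) and 256 lower (2.1%), together 4.58%. The counting interval lay above 1 for 725 genes (5.94%) and below 1 for 611 (5.0%), together 10.9% of the 12208 genes with reads. That share went with depth, from 5.19% of genes under 100 summed reads to 30.8% of those with 10000 or more.

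Gstp2, Plac9b and Dynlt1c, all among the named genes with the largest ratios, have a near-identical copy, a set put together after the values were seen. The first 60 coding bases of each, from the GENCODE transcripts of GRCm38, are shown because the copies differ so little in them; the part of this likeness in the ratios was not tested. Capitals mark the bases at which the copies differ.

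Gstp1: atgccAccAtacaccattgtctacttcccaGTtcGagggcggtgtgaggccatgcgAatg
Gstp2: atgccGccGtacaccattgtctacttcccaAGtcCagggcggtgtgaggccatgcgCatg
Dynlt1b: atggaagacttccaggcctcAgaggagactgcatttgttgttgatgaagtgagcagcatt
Dynlt1c: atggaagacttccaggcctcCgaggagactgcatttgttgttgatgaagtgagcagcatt
Plac9a: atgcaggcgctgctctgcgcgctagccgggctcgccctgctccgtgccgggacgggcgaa
Plac9b: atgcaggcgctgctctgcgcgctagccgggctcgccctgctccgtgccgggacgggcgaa

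Over the whole coding sequence, Gstp1 and Gstp2 were 98.1% identical, with 12 differences in 630 bases. Dynlt1b and Dynlt1c differed by 1 base in 339, A21C, counted from 1 at the A of the start codon with the base of Dynlt1b first. Plac9a and Plac9b had the same 324 coding bases. The sources used here do not say how reads that match more than 1 copy were counted.

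Gstp2, a glutathione transferase of the pi class on chromosome 19, stood at 10.9 FPKM in BM and 4.47 in BEM, with 169 and 82 reads. Its log2 ratio was -1.20 and its ratio of FPKM 0.410 (0.311 to 0.537). Gstp1, its abundant neighbour of the same class, stood at 124.7 FPKM in BM and 138.1 in BEM, a ratio of 1.11 (1.04 to 1.18). Gstp2 was thus lower and Gstp1 higher in BEM, and the reads of both together had a ratio of 1.05 (0.991 to 1.11).

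Dynlt1c and Dynlt1b, on chromosome 17, encode light chains of the dynein motor. Dynlt1c stood at 9.95 FPKM in BM and 15.2 in BEM, with 756 and 1365 reads, a ratio of 1.52 (1.39 to 1.67). Dynlt1b went the other way, from 91.3 FPKM in BM to 69.7 in BEM, a ratio of 0.764 (0.707 to 0.824). Dynlt1a, at 18.5 and 16.9 FPKM, had an interval that held 1. Summed over Dynlt1a, Dynlt1b, Dynlt1c and Dynlt1f, the reads had a ratio of 1.02 (0.963 to 1.07). The sum of FPKM over the same 4 genes went from 120.04 in BM to 102.2 in BEM, since reads on the longer Dynlt1c count for less FPKM.

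Plac9b, on chromosome 14, encodes a small secreted protein. It stood at 2.25 FPKM in BM and 5.01 in BEM, with 58 and 153 reads, a log2 ratio of 1.00 and a ratio of 2.23 (1.64 to 3.07). Plac9a, at 7.58 and 5.58 FPKM, had a ratio of 0.736 (0.598 to 0.905). The pair's summed reads had a ratio of 1.07 (0.906 to 1.26). In each of the 3 sets the copies lay on opposite sides of 1, and the interval of the summed reads held 1.

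**Figure D2:**
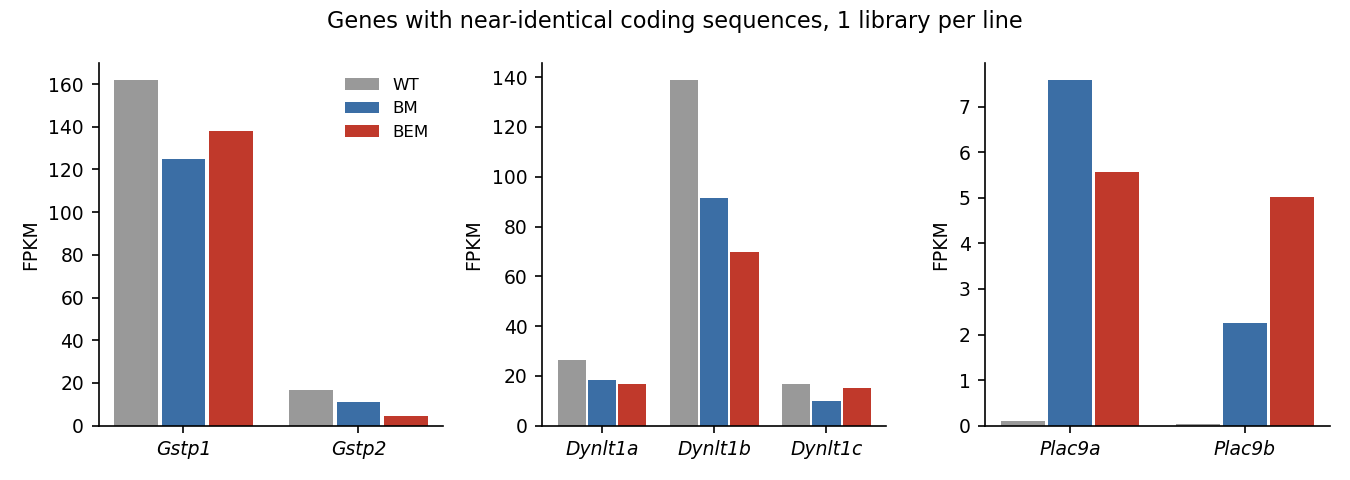
FPKM (y axis) of the genes with near-identical coding sequences in WT (grey), BM (blue) and BEM (red), 1 library per line, so there are no error bars. In BEM, Gstp2, Dynlt1a, Dynlt1b and Plac9a are lower than in BM, and Gstp1, Dynlt1c and Plac9b are higher.

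The other named genes with the largest ratios had at most 314 reads in either library. First come those lower in BEM. Insc, an adaptor that orients the mitotic spindle, stood at 2.02 FPKM in BM and 1.12 in BEM, with 151 and 99 reads, a ratio of 0.554 (0.425 to 0.718). It had 1 read in WT. Efr3b, which anchors a lipid kinase at the plasma membrane, stood at 1.39 and 0.789 FPKM, a ratio of 0.568 (0.448 to 0.717). Rom1, a membrane protein of rod outer segments, stood at 4.11 and 2.61 FPKM, a ratio of 0.637 (0.483 to 0.838). Etfb, the beta subunit of the electron transfer flavoprotein, stood at 3.72 FPKM in BM and 2.42 in BEM. Star, which brings cholesterol into mitochondria for steroid synthesis, stood at 1.89 and 1.18 FPKM, and Amt, of the glycine cleavage system, at 2.08 and 1.38 FPKM. Their ratios were 0.650, 0.621 and 0.662. The cytokine Clcf1, of the interleukin-6 family, stood at 3.83 and 2.62 FPKM, a ratio of 0.685 (0.574 to 0.818). The hydrolase Bphl stood at 12.9 and 9.17 FPKM, a ratio of 0.710 (0.601 to 0.839). Ccl11, the eosinophil chemokine, and Fahd2a completed the list, at ratios of 0.623 and 0.662.

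On the higher side, Lst1, a leukocyte membrane gene, had 29 reads in BM and 61 in BEM, a ratio of 1.78 (1.12 to 2.87). Batf, a factor of the AP-1 family in lymphocytes, had 25 and 56 reads, a ratio of 1.89 (1.16 to 3.16). Slamf9, of the SLAM receptor family, had 2.31 and 3.93 FPKM, a ratio of 1.70 (1.24 to 2.35), and the adaptor Grap 43 and 85 reads, a ratio of 1.67 (1.14 to 2.47). The highest of these 4 was Lst1 in BEM, at 6.17 FPKM. The zinc finger genes Rsl1 and Zfp955a had ratios of 2.03 (1.28 to 3.31) and 1.77 (1.27 to 2.48). Rsph9, of the radial spoke of motile cilia, had 27 and 64 reads, a ratio of 2.002 (1.26 to 3.27). Sdsl, Camkmt and Ndufa4l2 had ratios of 1.83, 1.62 and 1.63, with 28 to 35 reads in BM. After Dynlt1c, the most reads among these 12 higher genes were the 153 of Plac9b in BEM.

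**Figure D3:**
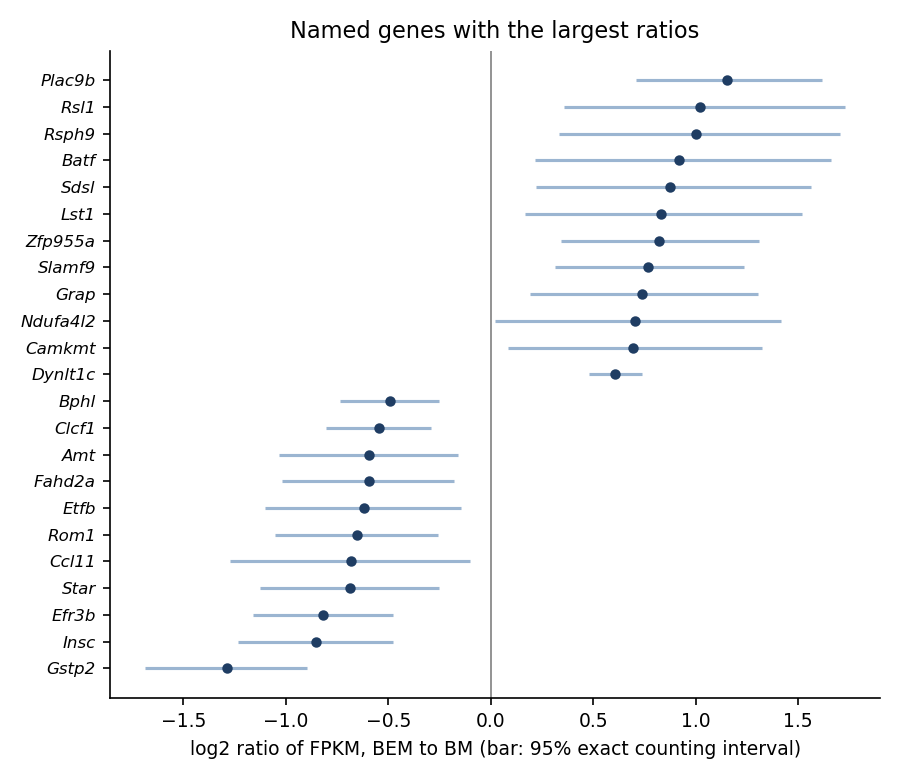
Log2 ratio of FPKM, BEM to BM (x axis, no pseudocount), of the named genes with the largest ratios; points are 1 library against 1 and bars are 95% exact counting intervals. Dynlt1c, with 756 and 1365 reads, has the narrowest interval, and Barhl1 is left out because it has no whole reads.

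Small shifts that many members of a family share were looked for in 69 gene lists, 59 of which had at least 5 measured members. Each member's log2 ratio was also centred on the median of the genes in the same of 20 bands of mean FPKM. A list counted as shifted when its centred median was at least 0.1 from 0. Only the small nuclear RNA genes met that at the settings used here, so the other families are described by their counts. Over all measured genes 51.1% lay above 0, which is the share each count above 0 is read against. In the highest of 10 bands of mean FPKM that share was 55.6%. For some lists the count against genes of like mean FPKM is given as well. The centred median was above 0 for 35 of the 59 lists.

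The cytosolic ribosomal proteins, which build the small and large subunits of the ribosome, lay mostly above 0, that is, higher in BEM. Of 82 genes 79 were measured, and 69 of these lay above 0 and 10 below. Against genes of like mean FPKM, 67 lay above and 12 below. The median log2 ratio was 0.06, the centred median 0.05, and the summed level of all 82 was 25681 FPKM in BM and 26818 in BEM, with 24292 in WT. The counting interval lay above 1 for 46 of the 79 and below 1 for 0, against 5.94% and 5.0% of all genes. Among the 51 with at least 10000 summed reads it lay above 1 for 33, against 15.7% of all 720 genes of that depth. No member differed by 25% or more. Members of the large subunit included Rpl21, from 7.02 to 8.45 FPKM, a ratio of 1.20 (1.07 to 1.36), and Rpl39, from 120.2 to 138.7 FPKM, a ratio of 1.15 (1.105 to 1.21). Rps29 of the small subunit stood at 260.02 FPKM in BM and 299.5 in BEM, a ratio of 1.15 (1.103 to 1.20), and Rps15a at 34.3 and 39.0 FPKM, a ratio of 1.14 (1.09 to 1.18). The abundant stalk protein Rplp1 stood at 2354 and 2535 FPKM, a ratio of 1.08 (1.06 to 1.096). The lowest member was Rpl28, at 54.8 and 52.5 FPKM, with an interval that held 1.

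The upstream bases of 2 of these genes are shown, Rps21 with a motif in them and Rpl39 with none. Rps21 stood at 224.5 FPKM in BM and 252.6 in BEM, a ratio of 1.13 (1.08 to 1.17). The 120 bases before its RefSeq start lie at chr2:180257259-180257378 on the plus strand of GRCm38.p6, and those of Rpl39 at chrX:37085223-37085342 on the minus strand. Capitals mark CCGGAAG, the letters of an ETS-type motif.

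Rps21 upstream: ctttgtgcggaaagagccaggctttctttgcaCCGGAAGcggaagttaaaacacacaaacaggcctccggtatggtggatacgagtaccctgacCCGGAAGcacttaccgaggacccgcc
Rpl39 upstream: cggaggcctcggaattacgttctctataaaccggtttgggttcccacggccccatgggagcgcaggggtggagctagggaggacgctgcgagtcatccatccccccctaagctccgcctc

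In the 250 bases before the start, CCGGAAG on either strand stood in 31.0% of the 58 measured ribosomal protein genes matched by symbol, in 14.6% of the 8669 measured genes matched and in 0 of 23 collagen genes. CANNTG stood in 48.3% of the same ribosomal protein promoters. These are descriptions of the letters, with no statement on binding.

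Most nuclear genes of the respiratory chain lay on the same side. Complex I, which oxidises NADH, had 35 measured subunits, 28 above 0 and 7 below, with a median log2 ratio of 0.06. Ndufb5 stood at 4.88 FPKM in BM and 5.78 in BEM, a ratio of 1.19 (1.05 to 1.33), and Ndufa3 at 22.3 and 25.8 FPKM, a ratio of 1.16 (1.025 to 1.31). Of 9 subunits of complex III 8 lay above 0, with Uqcrb at 47.8 and 52.5 FPKM. The 13 measured subunits of cytochrome c oxidase, the terminal enzyme of the chain, had 10 above 0 and a median of 0.06. Cox5b stood at 65.9 and 74.3 FPKM, a ratio of 1.13 (1.07 to 1.20), and Cox6b1 at 128.9 and 143.5 FPKM, a ratio of 1.11 (1.05 to 1.18). For ATP synthase 12 of 18 lay above 0, with Atp5k at 27.9 and 34.8 FPKM, a ratio of 1.247 (1.09 to 1.43). The 13 proteins that mitochondria encode themselves had 6 above 0 and 7 below and a median of -0.01. The interval lay below 1 for 5 of the 13 and above 1 for 1, against 5.0% and 5.94% of all genes. Among the 9 with at least 10000 summed reads it lay below 1 for 5, against 15.1% of all 720 genes of that depth. Centred on genes of like exon length, 10 of the 13 lay below, with a median of -0.04. Centred on GC content the median was -0.03. Of the 13, mt-Nd4 stood at 691.9 FPKM in BM and 648.5 in BEM, a ratio of 0.937 (0.919 to 0.956), and mt-Co3 at 1104 and 1151 FPKM, a ratio of 1.04 (1.02 to 1.06). The mitochondrial ribosomal proteins had 46 of 76 above 0 and a median of 0.01, with Mrpl14 lower (19.3 to 15.5 FPKM) and Mrps36 higher (11.3 to 13.7 FPKM) in BEM.

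Other families of protein and RNA handling were mixed in size. All 7 measured subunits of the CCT chaperonin, which folds actin and tubulin, lay above 0, with a median of 0.05. Centred on GC, 5 of the 7 lay above. Cct7 stood at 29.1 FPKM in BM and 31.0 in BEM, a ratio of 1.07 (1.02 to 1.11). Of 24 Sm and Lsm proteins, which form the core of splicing particles, 17 lay above 0, and Lsm1, at 6.55 and 8.29 FPKM, had a ratio of 1.27 (1.09 to 1.47). The SR and hnRNP splicing factors had 23 of 30 above 0, with Hnrnpa3 at 24.7 and 27.3 FPKM. The proteasome had 26 of 42 above 0 and the translation initiation factors 31 of 53. Of the aminoacyl-tRNA synthetases, which charge transfer RNA, 10 of 20 lay above 0. The COP and SEC transport genes had 18 of 32 above 0. Their interval lay above 1 for 2 and below 1 for 3, against 5.94% and 5.0% of all genes. Sec61g, a subunit of the translocation channel, stood at 19.4 and 23.8 FPKM, a ratio of 1.22 (1.13 to 1.33).

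The S100 proteins, small calcium-binding proteins, had all 7 measured members above 0, with a median of 0.10 and a centred median of 0.09. Their genes are short, with a median exon length of 715 bases. Centred on genes of like exon length, 5 of the 7 lay above and 2 below, with a median of 0.07. S100a6 stood at 621.8 FPKM in BM and 664.6 in BEM, a ratio of 1.07 (1.05 to 1.09), while WT had 80.4 FPKM. S100a11 stood at 753.8 and 774.5 FPKM with an interval that held 1. The less abundant S100a13 and S100a16 had ratios of 1.21 (1.03 to 1.44) and 1.22 (1.02 to 1.47). Of 16 family members in the annotation the other 9 had a mean under 1 FPKM.

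Processed pseudogenes, copies of messenger RNA set back into the genome, had the centred median farthest from 0 after the small nuclear RNA genes, at 0.096, and passed the limit of 0.1 under 3 other settings. Of 328 measured, 221 lay above 0, with 56 higher (17.1%) and 18 lower (5.49%) by 25% or more. Over all genes these shares were 2.48% and 2.1%, and in the band of the shortest genes 17.6% and 14.9%. The 50 with a ribosomal protein symbol had 43 above 0 and a median of 0.14, and the other 278 had 178 above 0 and a median of 0.08. Gm10075 stood at 10.9 FPKM in BM and 15.8 in BEM, a ratio of 1.45 (1.16 to 1.84). Such copies can share reads with their parent genes, so their counts are not independent of those above.

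**Figure D4:**
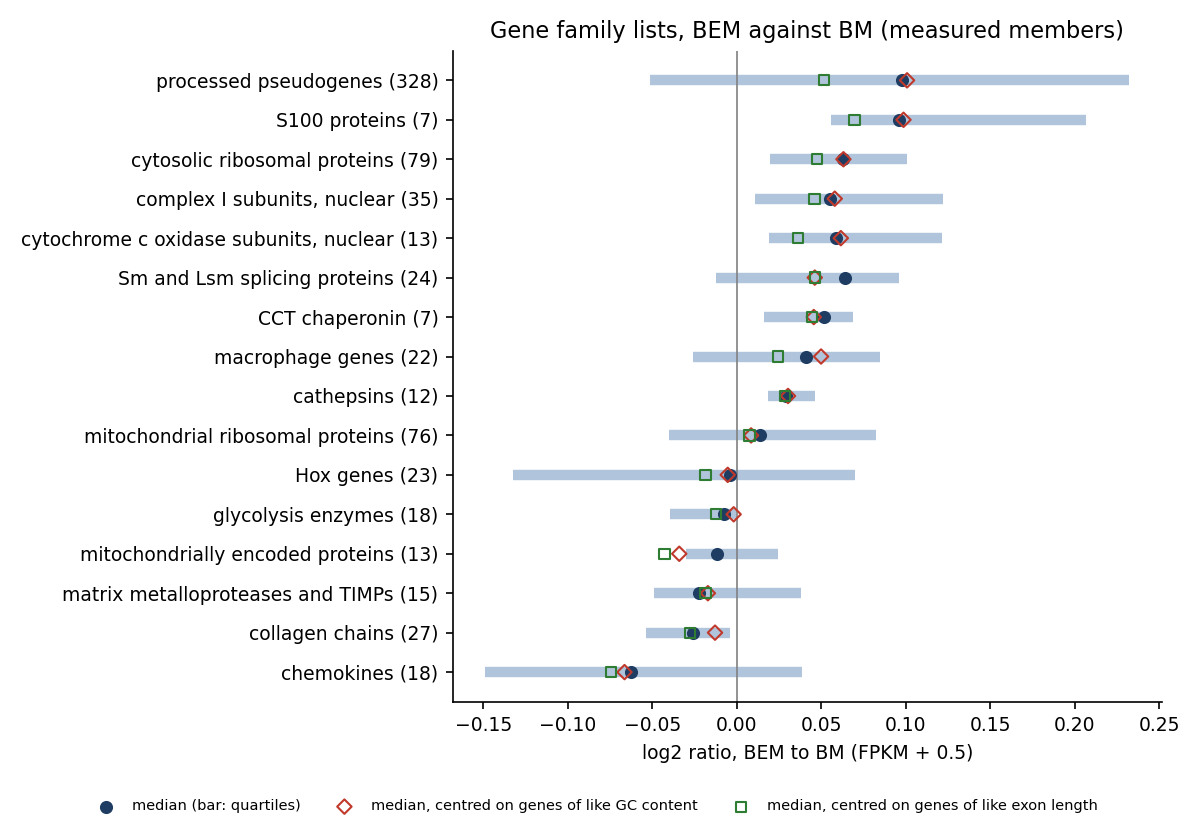
Log2 ratio of BEM to BM (x axis) for 16 gene lists, with the number of measured members in parentheses; dots are medians over genes, bars the quartiles, and open symbols the medians after centring on genes of like GC content (diamonds) or exon length (squares). The medians of ribosomal proteins and nuclear respiratory chain subunits lie right of 0 and that of collagens left of 0, all within 0.1 of it. The proteins encoded by mitochondria have a median of -0.01, or -0.04 when centred on exon length. The 16 lists are a selection from the 69 and leave out the small nuclear RNA genes, whose centred median was -0.19.

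The collagens, fibre-forming proteins of the extracellular matrix, lay mostly on the other side. Of 44 collagen genes 27 were measured, with 21 below 0 and 6 above, against 48.9% of all genes below, and a median log2 ratio of -0.03. Set against genes of like mean FPKM, 22 lay below and 5 above. The interval lay below 1 for 10 of the 27 and above 1 for 0, against 5.0% and 5.94% of all genes. These are deeply read genes: among the 16 with at least 10000 summed reads it lay below 1 for 8, against 15.1% of all 720 genes of that depth. Col1a1, a chain of type I collagen and among the most abundant transcripts, stood at 2645 FPKM in BM and 2554 in BEM, a ratio of 0.966 (0.961 to 0.970). Its partner chain Col1a2 stood at 978.3 and 963.6 FPKM, a ratio of 0.985 (0.980 to 0.990). Col5a1, a chain of fibril-forming type V collagen, stood at 454.1 and 433.7 FPKM, a ratio of 0.955 (0.946 to 0.964), and Col18a1 of basement membranes at 63.1 and 59.4 FPKM, a ratio of 0.940 (0.914 to 0.968). The lowest ratio was that of Col11a2, a chain of cartilage collagen, at 1.20 and 0.842 FPKM, 0.701 (0.555 to 0.885). Summed over all 44 the level was 7133 FPKM in BM and 6973 in BEM, with 3644 in WT. The matrix metalloproteases and their inhibitors had 10 of 15 below 0, the laminins 4 of 6 and the proteoglycans 11 of 18. The fibulin and fibrillin list had 9 of 15 below 0, and centred on genes of like GC content 9 of 15 above.

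The base composition and length of transcripts moved with these results. In the lowest of 10 bands of GC content 60.8% of genes lay above 0 (median 0.02), and in the highest band 34.4% (median -0.03). By exon length, the band of the shortest genes had a median of 0.04 and 56.8% above 0, while that of the longest had -0.00076 and 49.5%. Among protein-coding genes other than ribosomal proteins, the shortest band had a median of 0.02 and 57.5% above 0. Exon length here counts every base in an exon of any annotated transcript of the gene, so it can exceed the length of the main transcript. The collagens had a median GC content of 56.1%, and centred on genes of like GC their median was -0.01, with 18 of 27 below. The laminins went to -0.0094 and the fibulin and fibrillin list to 0.02. The ribosomal proteins had a median GC content of 51.0% and a median exon length of 1770 bases. Their median was 0.06 when centred on GC and 0.05 when centred on length, with 66 and 64 of 79 above. The SR and hnRNP factors, at a GC content of 43.3%, went to 0.0060 when centred on GC. The processed pseudogenes went to 0.05 when centred on length, cytochrome c oxidase from 0.06 to 0.04, complex III from 0.04 to 0.02 and complex I from 0.06 to 0.05. Beyond these centred values, the part of GC content and length in the results was not tested.

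**Figure D5:**
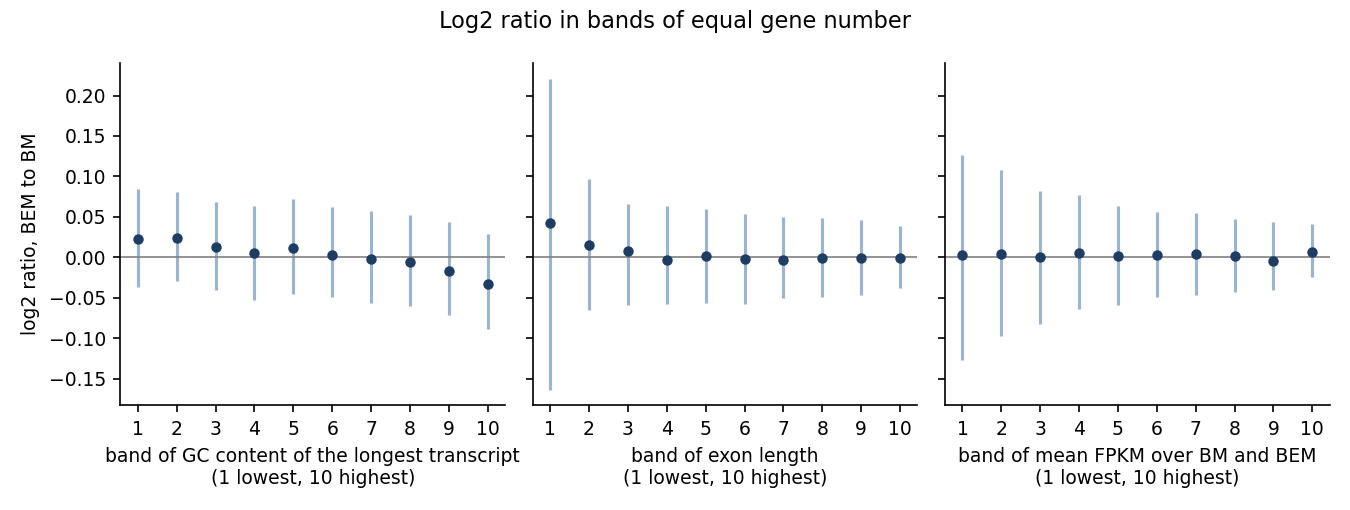
Log2 ratio of BEM to BM (y axis) in 10 bands of equal gene number by GC content, exon length and mean FPKM (x axes); points are medians over genes and bars the quartiles, not errors. The median goes from 0.02 in the lowest to -0.03 in the highest GC band, and no such slope is seen over mean FPKM.

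Chromosomes lay close together, with medians from -0.01 on chromosome 7 (901 genes) to 0.02 on chromosome 14 (443 genes). Chromosome 2, which carries Barhl1, had a median of 0.0068 over 995 genes.

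Summed over each list, the markers of macrophages, smooth muscle and fibroblasts were nearly level between the mutants. Macrophage genes, 22 of 23 measured, had a level summed over all 23 of 2227 FPKM in BM and 2279 in BEM, with 23.4 in WT. Of the 22, 15 lay above 0, and the highest log2 ratio was 0.75. The interval lay above 1 for 6 and below 1 for 1, against 5.94% and 5.0% of all genes, shares that rise with depth. Among the 2 with at least 10000 summed reads it lay above 1 for 1, against 15.7% of all genes of that depth. By 25% or more 2 of the 22 were higher and 0 lower, against 2.48% and 2.1%. Lyz2, encoding lysozyme, stood at 1380 and 1409 FPKM, a ratio of 1.02 (1.001 to 1.04). Trem2, a lipid receptor of macrophages and microglia, stood at 11.7 and 12.98 FPKM, a ratio of 1.11 (1.03 to 1.20). Laptm5, a lysosomal membrane protein of leukocytes, was lower, at 41.3 and 37.6 FPKM, a ratio of 0.910 (0.867 to 0.956). These are bulk cultures, in which fewer cells of a type and less RNA per cell cannot be told apart. The cathepsins, lysosomal proteases, had 11 of 12 above 0, led in level by Ctsb at 421.9 and 431.4 FPKM. The vacuolar proton pump, which acidifies lysosomes, had 13 of 18 above 0, with Atp6v1f at 64.6 and 72.0 FPKM, a ratio of 1.11 (1.04 to 1.195).

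The smooth muscle and contractile list had all 20 genes measured, with 13 above 0. Compared with genes of like mean FPKM, 7 of the 20 lay above and 13 below. Acta2, smooth muscle actin, stood at 2576 FPKM in BM and 2578 in BEM. The fibroblast list had 2 of 8 above 0 and a summed level of 4950.4 FPKM in BM and 4836 in BEM. The source label is hair cell-like cells. Of 12 hair cell genes 3 were measured, Atoh1, Myo7a and Myo6. Myo7a, a myosin of stereocilia, stood at 9.79 and 9.83 FPKM, a ratio of 1.00 (0.941 to 1.07), and Myo6 at 2.04 and 2.15 FPKM. Of the defining genes that were not measured, Pou4f3 had 1 read in each mutant, Gfi1 had 0 reads in both, Otof had 2 and 4 reads, and the bundle protein Espn stood at 0.565 and 0.503 FPKM. None of 5 blood genes reached a mean of 1 FPKM. Sox2, of progenitors and supporting cells, had 10 and 8 reads, Pou5f1 had 0 in both and Nanog had 8 and 21. The supporting cell and otic progenitor list had 4 of 10 genes measured, 2 above 0 and 2 below. Their log2 ratios ran from -0.27 to 0.15, with a median of -0.10. The neuronal list had 1 of 4 measured genes above 0 and the glial list 1 of 3. The epithelial and endothelial lists had 1 measured gene each, at log2 ratios of 0.05 and -0.13.

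Genes of immune signalling did not move as 1 group. The chemokines had 12 of 18 measured below 0 and a median log2 ratio of -0.06. Ccl11 stood at 2.80 FPKM in BM and 1.75 in BEM, a ratio of 0.623 (0.414 to 0.931), and Ccl9 at 2.22 and 1.67 FPKM, a ratio of 0.751 (0.583 to 0.967). The abundant Ccl2, which attracts monocytes, stood at 103.0 and 108.8 FPKM, and Ccl7 at 118.9 and 115.8 FPKM. Interferon-stimulated genes had 17 of 24 above 0 and a median of 0.04, with Bst2, which tethers virus particles, at 170.1 and 196.8 FPKM, a ratio of 1.16 with an interval above 1.

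Signalling and patterning lists lay near 0. For retinoic acid, an agent of the medium, 7 of 13 measured genes lay above 0 and the median was 0.0017. Beside genes of like mean FPKM, 6 of these 13 lay above. Cyp26b1, which degrades retinoic acid, stood at 4.61 and 3.88 FPKM, a ratio of 0.843 (0.743 to 0.957), and Crabp2, which binds it, at 10.5 and 12.6 FPKM, a ratio of 1.19 (1.02 to 1.40). The EGF receptor family and its ligands, the other agent's pathway, had 5 measured genes with log2 ratios from -0.10 to 0.03. The Wnt list had 16 of 27 above 0, the BMP and TGF-beta list 14 of 35, the FGF list 7 of 15 and the Notch list 8 of 14. Of the 35 BMP and TGF-beta genes, 10 lay above genes of like mean FPKM and 25 below. Hes1, a Notch target, stood at 29.1 and 26.7 FPKM, a ratio of 0.918 (0.8475 to 0.994). The Hox genes, which set position along the body axis, had 11 of 23 above 0. The interval lay below 1 for 3 of the 23 and above 1 for 0, against 5.0% and 5.94% of all genes. The 3 were Hoxd13 (0.752, 0.584 to 0.967), Hoxc9 (0.804, 0.694 to 0.932) and Hoxc10 (0.871, 0.767 to 0.990). Imprinted genes had 13 of 19 below 0, among them H19 at 778.7 and 755.9 FPKM, while Gnas stood at 6.55 and 7.86 FPKM, a ratio of 1.20 (1.12 to 1.28).

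Metabolic, stress and cycling lists had centred medians within 0.1 of 0, like those above. Of 18 glycolysis enzymes 14 lay below 0, with a median of -0.0076, or -0.0019 when centred on GC, and Eno1 stood at 166.9 and 161.9 FPKM, a ratio of 0.970 (0.951 to 0.990). The cholesterol synthesis genes had 12 of 22 above 0, the unfolded protein response 12 of 19, the heat shock genes 6 of 12 and the hypoxia list 8 of 16. Of the 19 unfolded protein response genes, 8 lay above genes of like mean FPKM and 11 below. Immediate early genes had 8 of 17 above 0, with Junb lower (35.2 to 31.1 FPKM) and Fosl1 higher (11.2 to 12.96 FPKM) in BEM. Genes of the cell cycle and mitosis had 15 of 22 above 0 and a median of 0.04, and DNA replication genes 13 of 25. The 262 zinc finger genes with a Zfp symbol had 135 above 0, and the 183 solute carriers 101, which is 51.5% and 55.2%.

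The small nuclear RNA genes, the 1 list past the limit for a shift, had a centred median of -0.19 over 35 measured genes. They lay on both sides, 17 above 0 and 18 below, of which 6 and 5 passed 2-fold, against 0.385% and 0.311% of all measured genes. The reads of these 35 genes summed to 193 in BM and 220 in BEM, and the interval excluded 1 for 1 of them. MicroRNA genes (54 of 103 above 0) and snoRNA genes (60 of 109 above 0) were also widely spread, with quartiles from -0.52 to 0.54 and from -0.53 to 0.43. Such RNAs mostly lack the poly(A) tail by which these libraries were enriched.

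In absolute level, the differences were compared among nuclear protein-coding genes. The positive differences were led by Rplp1 (181.4 FPKM), Rpl36 (65.4 FPKM), Rps12 (62.4 FPKM) and Rps15 (51.9 FPKM), all ribosomal. Beside them stood Tmsb4x, which binds actin monomers, from 723.2 to 767.8 FPKM, and Cd63, a tetraspanin of late endosomes, from 740.3 to 783.2 FPKM, each with a ratio of 1.06. After Barhl1, the most negative differences of BEM minus BM in these genes were -90.3 FPKM for Col1a1, -21.6 FPKM for Dynlt1b, -20.9 FPKM for Igfbp7 and -20.8 FPKM for Fbln2, an elastic fibre protein. Vim, the intermediate filament of mesenchyme, stood at 935.2 and 919.3 FPKM, a ratio of 0.983 (0.974 to 0.992).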

How the data were processed

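RNA-seq was analysed from 3 mouse stem cell cultures (WT, BM, BEM), 1 library each. Expression values were deposited as FPKM, per the file headers. The authors' log2 ratio and p-value (with FDR) per pair were read from their deposited tables. GRCm38, TopHat2, HTSeq and edgeR are named in the submitters' processing notes, without versions. The sources used here do not say if chicken reads were removed.

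The ratio was log2(FPKM + 0.5), BEM to BM, with no further scaling, for genes whose mean reached 1 FPKM, and folds of single genes are ratios of FPKM. Reads were recovered as the whole numbers (within 0.0001) that a gene length and library total give: 71.8% of measured genes were whole at the GENCODE M21 exon length, and for 3446 others the shortest length that worked was used, which gives the fewest reads and widest intervals. Totals were inferred from the FPKM, as the numbers that best gave whole reads at the annotated exon lengths. They were 21555823 (WT), 20111794 (BM) and 23813123 (BEM). Of 47725 identifiers 47306 were in the annotation.

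Named genes were those at Barhl1, the 12 largest ratios per direction with at least 50 reads in the higher library, up to 4 members per list whose interval excluded 1, up to 8 abundant members of the 8 lists with the largest centred medians, the 10 largest FPKM differences per direction among nuclear protein-coding genes, and a set of hair cell and stem cell genes. Other members are given for scale. The members and lists were chosen with earlier results of these data known. The near-identical copies and the GC and length centring were chosen after seeing the data. Python 3.11.15, numpy 2.4.6, scipy 1.17.1 and pandas 2.3.3 were used, and the steps were tested on simulated data. Alternatives were pseudocounts, scalings, filters, thresholds, recovered reads and the authors' ratios.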

Additional observations from a re-analysis of the deposited data

How the results depend on the processing

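Each line had 1 library, so no result has a replicate check. No paired analysis was possible because each line has 1 library and no replicates. The counts of genes depended on the setting. At 2-fold, 47 genes higher became 0 with a pseudocount of 5, 198 with no filter, 0 at a mean of 10 FPKM, 1 among named protein-coding genes, 12 at 4-fold, 4 where the interval also excluded 1 and 12 by the authors' deposited ratio. The 38 lower became 66 with a pseudocount of 0.05, 1 with a pseudocount of 5, 58 from recovered reads, 171 with no filter, 1 at a mean of 10 FPKM, 2 among named protein-coding genes, 6 at 4-fold, 5 with the interval and 9 by the authors' deposited ratio. At a difference of 25%, 303 higher and 256 lower became 66 and 59 with a pseudocount of 5, 1372 and 1157 with no filter, 21 and 10 at a mean of 10 FPKM, 67 and 76 among named protein-coding genes, 114 and 102 at 1.5-fold, and 96 and 59 with the interval. The centred median of the small nuclear RNA genes was -0.060 with a pseudocount of 5 and 0.34, of opposite sign, with no filter; the cause was not tested. That of the processed pseudogenes passed 0.1 with a pseudocount of 0.05 (0.104), from recovered reads (0.105) and centred on GC (0.101). That of the snoRNA genes reached 0.21 with no filter and 0.27 at a mean of 10 FPKM, and that of the microRNA genes -0.11 at the latter. Scalings raised all ratios by 0.0015 to 0.0088. Of the genes that differed by 25% or more, 54.2% were higher with no scaling and 54.7% to 56.3% with the scalings. The ribosomal protein median kept its sign in all 13 alternatives (0.05 to 0.06), as did that of the collagens (-0.04 to -0.01). The 13 are not independent checks. The scalings shift all ratios by nearly the same amount, which centring takes out, so they could hardly change a centred median. The recovered reads come from the same FPKM.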
